A study of Ovis aries with 36 samples.

Results

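The genes described here are 9 members of the cellular oxygen-sensing system: HIF1A and EPAS1, which encode the oxygen-regulated alpha subunits of hypoxia-inducible factor (HIF); EGLN1 and EGLN3, which encode prolyl hydroxylases acting on those subunits; and VEGFA, ADM, CA9, BNIP3 and NDRG1, which are known targets of HIF. They were taken by gene symbol from a table of 35223 counted genes, and all 9 passed the filter on low counts, which left 22488 genes for testing. RNA sequencing was done on sheep (Ovis aries) ruminal epithelial cells, the cells that line the forestomach and take up volatile fatty acids (VFAs) made by rumen microbes. Every culture was first synchronised for 2 h without serum, in the presence of the clock-setting glucocorticoid dexamethasone at 100 nM, and then received a VFA medium of pH 7.2. Cells of the Grain groups were given 71.1 mM acetate, 20.1 mM propionate, 16.0 mM butyrate, 5.3 mM isovalerate, 1.7 mM valerate and 1.1 mM isobutyrate. Those of the Hay groups were given less of each acid: 60.8 mM acetate, 14.6 mM propionate, 9.2 mM butyrate, 3.0 mM isovalerate, 1.2 mM valerate and 1.0 mM isobutyrate. Each medium was sampled at 6 time points, T0, T4, T8, T12, T16 and T20, corresponding to 24 to 44 h, with 3 libraries at each, so that 18 Grain and 18 Hay libraries were compared. VFA-free or low-oxygen cultures were not analysed here, and the animal, strain and passage of the cells are not given in the labels.

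In well-oxygenated cells, the EGLN enzymes hydroxylate prolines of the HIF alpha subunits, and the VHL ubiquitin ligase then binds the subunits and sends them to the proteasome. When oxygen is short, the alpha subunits persist, pair with the beta subunit ARNT and switch on genes for blood vessel growth, glucose use, pH control and removal of mitochondria. The alpha subunits are therefore regulated largely as proteins, which RNA sequencing does not measure. Several targets also respond to other signals, and EGLN3 is itself a HIF target. The rumen wall borders a nearly oxygen-free lumen on one side and a dense capillary bed on the other.

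Total counts were 52.4 to 68.1 M per library, and log-scale correlations between replicates ran from 0.981 to 0.987. The labels do not state whether replicates were separate cultures or animals, so each p-value covers only the spread of these libraries, possibly a technical one. Within each medium the first principal component (56.4% of the variance in Grain, 44.5% in Hay) placed T8 and T12 at opposite ends, so results over time are given below with and without those 12 libraries. The median log2 ratio of Grain over Hay across all tested genes was -0.07 with TMM scaling, and -0.19 with upper quartile scaling, which lowered each ratio accordingly. Fibroblast marker transcripts summed to 17900 to 33800 CPM (TMM-scaled counts relative to library size) and keratinocyte markers to 242 to 615 CPM, and these sums, which are not corrected for transcript length, go against the epithelial label. Of 13 keratinocyte markers 10 were tested, of which 3 were higher in Grain and 7 lower, and KRT4 was at 0 in Grain. Their levels in Grain and Hay were 205 ± 57.9 and 119 ± 6.17 CPM for KRT14, 44.2 ± 2.5 and 65.8 ± 3.22 CPM for CDH1, and 4.88 ± 0.645 and 8.32 ± 0.914 CPM for TP63 (SD, n = 18 each, here and for later CPM values of a medium). In bulk RNA, fewer cells of a type and less RNA per cell cannot be told apart.

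The 9 genes did not move together between the media. VEGFA was 2.83-fold higher in Grain and EGLN3 was 2.73-fold higher in Hay, while HIF1A, EPAS1 and NDRG1 were lower in Grain by smaller factors. ADM and BNIP3 were slightly lower and CA9 slightly higher in Grain, and EGLN1 did not pass the test. Over the mean of the 6 time points, 8 of 9 genes passed edgeR's quasi-likelihood test at an adjusted p of 0.05, 2 higher in Grain and 6 lower. Of all tested genes, 37.9% passed as higher and 43.9% as lower, so a large share of calls is the background in these libraries and the count itself does not set the 9 genes apart. Their median log2 ratio was -0.13, beside -0.07 for all tested genes. For size, 11.1% of tested genes differed more than VEGFA and 11.8% more than EGLN3, against 97.3% for EGLN1. All Grain libraries lay apart from all Hay libraries for 4 of the 9, HIF1A, EGLN3, VEGFA and NDRG1, and for 27.2% of all tested genes. Without T8 and T12 the same test called 8 of 9, with log2 ratios of 1.53 for VEGFA and -1.47 for EGLN3. Over all genes it then called 17404 in place of 18388.

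**Figure D1:**
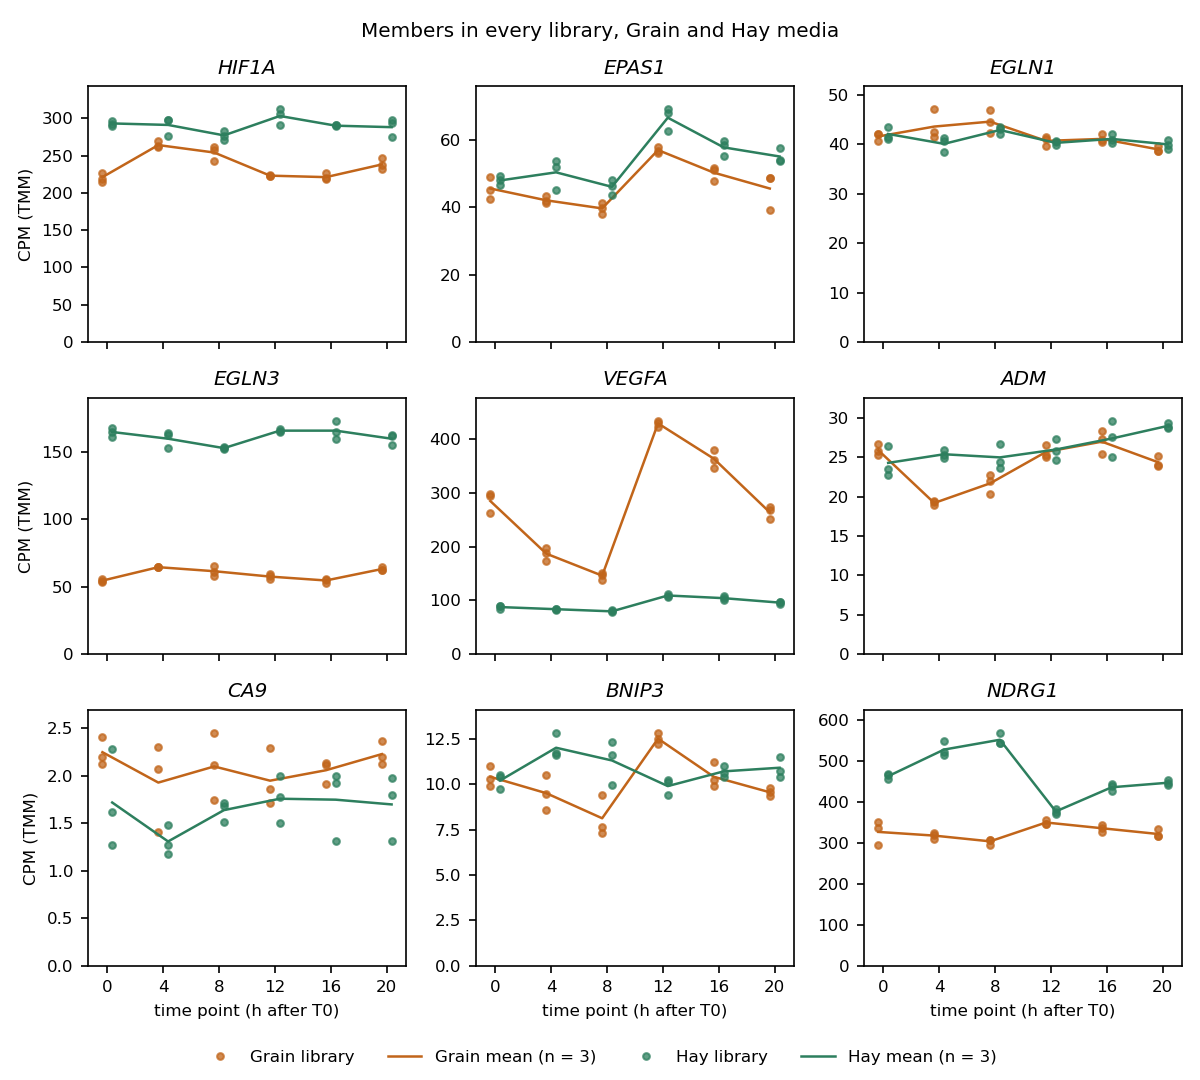
CPM of each gene (vertical axis, from 0) against hours after T0 (horizontal axis), with each library as a point and lines through the means of 3. VEGFA in Grain runs between 138 and 434 CPM and in Hay between 77.6 and 112, whereas EGLN3 lies between 53.1 and 65.6 CPM in Grain and 152 to 173 in Hay.

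HIF1A, the alpha subunit found in most cell types, had lowest, median and highest values of 215, 230 and 269 CPM in Grain and 271, 291 and 312 CPM in Hay. Every Grain library was below every Hay library. The mean log2 ratio was -0.30 ± 0.014 (SE; edgeR adjusted p = 3.89e-21), which is 1.23-fold higher in Hay. The difference passed the test at all 6 time points, and it depended on time (edgeR adjusted p = 2.55e-07 for the interaction). At T8 the Grain libraries held 262, 258 and 242 CPM and the Hay libraries 283, 276 and 271 CPM, a log2 ratio of -0.13 ± 0.033. At T12 they held 222, 224 and 223 CPM against 291, 312 and 305 CPM, a ratio of -0.44 ± 0.034. The media were closest at T4 and T8, when the Grain libraries were at their highest, and did not overlap at either time.

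EPAS1, the HIF-2 alpha subunit best known from endothelium and other specialised cells, had lowest, median and highest values of 38.0, 46.5 and 57.9 CPM in Grain and 43.7, 53.6 and 69.0 CPM in Hay. The media overlapped over the whole series of times. Its mean log2 ratio was -0.21 ± 0.026 (edgeR adjusted p = 3.17e-09), and 5 of 6 time points passed the test. T0, with a ratio of -0.07 ± 0.063, did not pass with TMM scaling (adjusted p = 0.314) and passed with upper quartile scaling (-0.22). At T8 the values were 41.2, 38.0 and 39.7 CPM in Grain and 47.9, 43.7 and 46.3 CPM in Hay. At T12 they were 56.6, 57.9 and 56.0 CPM in Grain and 62.6, 68 and 69.0 CPM in Hay. T12 was 1.43-fold above T8 in Grain and 1.45-fold above it in Hay, and no dependence of the medium difference on time passed the test (adjusted p = 0.463).

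The prolyl hydroxylase genes diverged. EGLN1 encodes PHD2, regarded as the main HIF hydroxylase at normal oxygen, and had lowest, median and highest values of 38.7, 41.4 and 47.1 CPM in Grain and 38.5, 40.9 and 43.6 CPM in Hay. The ranges nearly coincided. The mean log2 ratio was 0.02 ± 0.017 with an interval of 2 SE each way of -0.01 to 0.06 (edgeR adjusted p = 0.202), and with upper quartile scaling it was -0.10 and passed the test (adjusted p = 3.07e-06). The T4 ratio of 0.12 ± 0.041 passed (adjusted p = 0.0128), from 41.4, 47.1 and 42.5 CPM in Grain and 40.7, 38.5 and 41.2 CPM in Hay. That call was lost without Grain T4 replicate 2 (adjusted p = 0.235) or Hay T4 replicate 2 (0.103). It was also lost with DESeq2 (0.126), with DESeq2 size factors (0.109) or upper quartile scaling (0.882) in edgeR, and when T4 was fitted alone (0.0619). EGLN1 overlaps SPRTN in the RefSeq annotation. SPRTN, a protease of DNA repair, was higher in Grain (38.5 ± 1.88 against 32.1 ± 1.55 CPM; log2 ratio 0.26), and the library kit keeps no strand, so reads in the shared stretch cannot be told apart.

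EGLN3 encodes PHD3, the hydroxylase known to be induced most readily when HIF is active. It had lowest, median and highest values of 53.1, 58.8 and 65.6 CPM in Grain and 152, 163 and 173 CPM in Hay. No Grain library came near the Hay range. Grain over Hay gave a mean log2 ratio of -1.45 ± 0.015 (edgeR adjusted p = 1.02e-41), and all 6 time points passed, from -1.31 ± 0.036 at T4 and T8 to -1.61 ± 0.036 at T16. The size of the gap depended on time (adjusted p = 5.94e-07). In Grain the lowest mean was 54.5 CPM at T0 (54.1, 53.5 and 55.8) and the highest 64.5 CPM at T4 (64.4, 64.4 and 64.7), a 1.18-fold span in which the libraries of these times did not overlap. In Hay the span was 1.09-fold, and its adjusted p of 0.032 became 0.0571 to 0.119 when any library of Hay T8 was left out. With all libraries in edgeR, it also did not pass with DESeq2 size factors (0.0575), upper quartile scaling (0.0611) or no low-count filter (0.0556).

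**Figure D2:**
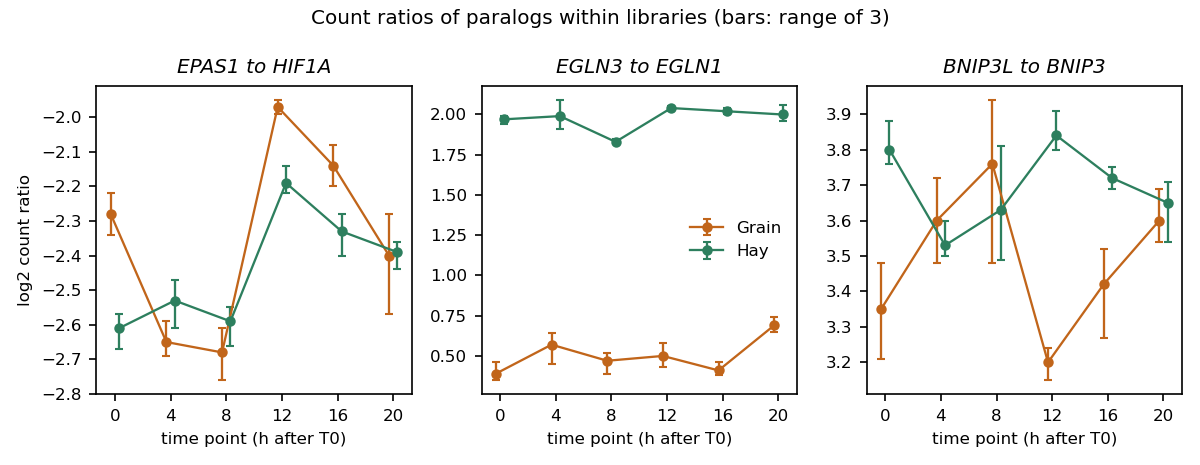
Log2 of the count ratio of paired genes within each library (vertical axis) against hours after T0, with the mean of 3 libraries as a point and their range as a bar, for Grain and Hay. EGLN3 to EGLN1 stays between 0.35 and 0.74 in Grain and between 1.82 and 2.09 in Hay, while the other ratios cross between media.

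Ratios of counts within a library do not depend on scaling between libraries and were formed for 3 pairs of related genes. Differences between media were tested by 100000-resample two-sided permutation over 18 against 18 libraries, with Benjamini-Hochberg adjustment over the 3. The log2 ratio of EGLN3 to EGLN1 had a mean of 0.50 (SD 0.12) in Grain and 1.98 (SD 0.079) in Hay. The difference of -1.47 gave a permutation p = 2e-05, the smallest these resamples can give (adjusted 6e-05), and no libraries of the media overlapped. EPAS1 to HIF1A had means of -2.35 (SD 0.27) and -2.44 (SD 0.16), and the difference of 0.09 did not pass (permutation p = 0.3). That permutation ignored the time points, so variation over time was part of its spread. With labels permuted within time points, a setting chosen after seeing the data, the difference passed (permutation p = 0.03, adjusted 0.03). Grain was above Hay without overlap at T0 (means of -2.28 against -2.61), T12 (-1.97 against -2.19) and T16 (-2.14 against -2.33). The libraries of the media overlapped at T4 (-2.65 against -2.53), T8 (-2.68 against -2.59) and T20 (-2.40 against -2.39), and the dependence of this ratio on time was not tested. BNIP3L to BNIP3 differed by -0.21 (Grain 3.49, SD 0.22; Hay 3.69, SD 0.13; permutation p = 0.002, adjusted 0.003), with overlapping libraries. This difference was not the same at each time. Grain was below Hay without overlap at T0 (means of 3.35 against 3.8), T12 (3.2 against 3.84) and T16 (3.42 against 3.72). The Grain mean was above that of Hay at T4 (3.6 against 3.53) and T8 (3.76 against 3.63). It was slightly below at T20 (3.6 against 3.65). Libraries overlapped at T4, T8 and T20, and the dependence of BNIP3L to BNIP3 on time was not tested.

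VEGFA encodes the vascular endothelial growth factor that drives capillary growth and is among the best known HIF targets. Its lowest, median and highest values were 138, 271 and 434 CPM in Grain and 77.6, 91.4 and 112 CPM in Hay, without overlap. Its mean log2 ratio was 1.5 ± 0.018 (edgeR adjusted p = 3.06e-39). The Grain libraries held 299, 294 and 262 CPM at T0, 174, 189 and 198 at T4, and 151, 138 and 148 at T8. At T12 they held 434, 424 and 431 CPM, followed by 347, 362 and 381 CPM (T16) and 251, 274 and 269 CPM (T20). Grain VEGFA was thus lowest at T8, highest in the next sample 4 h later, and lower again at each of the following times. The Hay libraries held 84.0, 89.0 and 89.1 CPM at T0, 82.3, 83.5 and 84.3 at T4, and 79.2, 77.6 and 81.3 at T8. At T12 they held 106, 112 and 108 CPM, followed by 108, 100 and 105 CPM (T16) and 96.8, 96.7 and 93.7 CPM (T20). Hay had its lowest and highest means at the same times as Grain over a narrower span, 1.37-fold between T8 and T12 against 2.95-fold in Grain.

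The VEGFA difference between media passed the test at every time point and ranged from 0.88 ± 0.045 at T8 (1.84-fold) to 1.98 ± 0.045 at T12 (3.95-fold). Its dependence on time had an edgeR adjusted p of 3.82e-16, and of 9.53e-07 without T8 and T12. VEGFA was not alone in the step between T8 and T12. In Grain, all T12 libraries lay apart from all T8 libraries for 7 of the 9 genes (5 higher at T12, 2 higher at T8) and for 56.0% of all tested genes. In Hay this held for 6 of the 9 (4 higher at T12, 2 higher at T8) and for 48.3% of all tested genes. These 2 times were picked for comparison after their values were seen, so the counts are a description. The TMM scaling factor also differed, with 1.05 at T8 and 0.864 at T12 in Grain and 1.08 and 0.988 in Hay, and its part in the step was not tested.

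**Figure D3:**
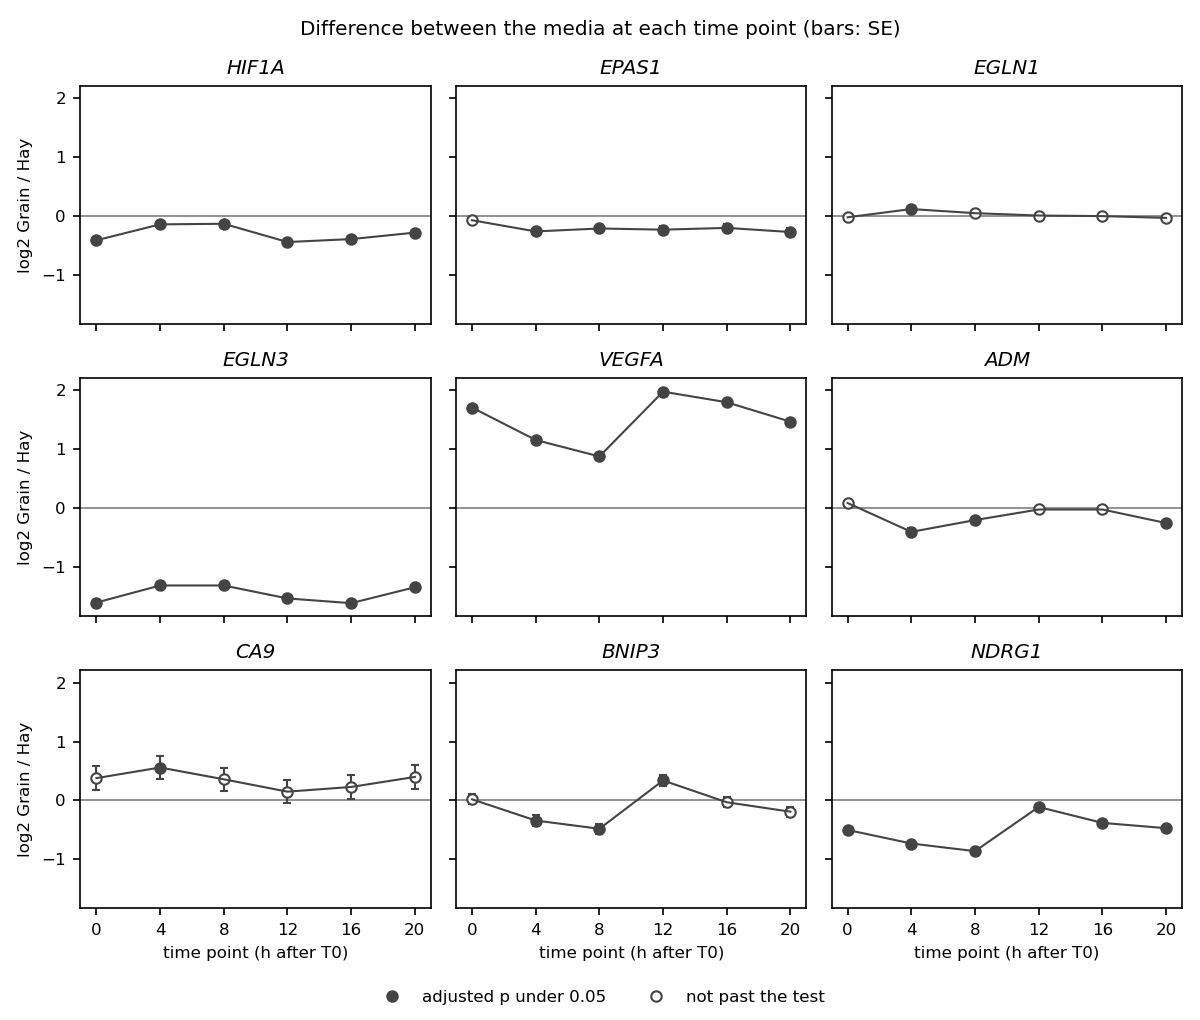
Log2 ratio of Grain over Hay (vertical axis) for each gene against hours after T0, with SE bars; filled points passed the edgeR test at an adjusted p under 0.05 and open points did not. VEGFA runs from 0.88 at T8 to 1.98 at T12, BNIP3 from -0.48 to 0.34 and NDRG1 from -0.86 to -0.11 over the same interval, while EPAS1 has -0.21 and -0.23.

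ADM encodes adrenomedullin, a vasodilator peptide. Its lowest, median and highest values were 18.9, 25.2 and 28.3 CPM in Grain and 22.8, 25.9 and 29.6 CPM in Hay, with wide overlap. Averaged over time, the log2 ratio was -0.13 ± 0.024 (edgeR adjusted p = 5.45e-06), and T4, T8 and T20 passed as lower in Grain. With upper quartile scaling, T12 (-0.14, edgeR adjusted p = 0.0439) and T16 (-0.15, 0.0288) passed as lower too. Without Hay T0 replicate 2, T0 passed as higher (0.16, 0.0312). The largest gap was at T4, with 19.3, 18.9 and 19.4 CPM in Grain and 25.9, 24.9 and 25.3 CPM in Hay (-0.40 ± 0.059). All T4 Grain libraries were below all T4 Hay libraries. At T16 the values were 25.4, 27.3 and 28.3 CPM against 25.1, 27.6 and 29.6 CPM and the groups overlapped. The interaction with time passed (adjusted p = 7.09e-05).

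CA9 encodes a carbonic anhydrase of the cell surface that helps export acid and is commonly used as a hypoxia marker. It was the most thinly counted of the 9, with 80 to 161 reads per library in Grain and 76 to 153 in Hay. Its lowest, median and highest values were 1.41, 2.13 and 2.45 CPM in Grain and 1.18, 1.65 and 2.28 CPM in Hay, which overlap. The mean log2 ratio was 0.35 ± 0.081 (edgeR adjusted p = 2e-04). T4 was the only time point to pass (0.56 ± 0.20, adjusted p = 0.0172), from 2.07, 1.41 and 2.30 CPM in Grain and 1.48, 1.27 and 1.18 CPM in Hay. That call was lost without Grain T4 replicate 1 (0.50, adjusted p = 0.0583), Grain T4 replicate 3 (0.41, 0.127) or Hay T4 replicate 3 (0.48, 0.072), and with upper quartile scaling (0.44, 0.0582). No change over time passed in either medium. CA9 overlaps ARHGEF39 in the annotation, and ARHGEF39 was 2.11-fold higher in Grain (8.15 ± 0.884 against 3.86 ± 0.499 CPM). Without strand, reads of the shared stretch cannot be assigned, so the CA9 difference is uncertain.

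BNIP3 encodes a mitochondrial outer membrane receptor for mitophagy, the removal of mitochondria. Its lowest, median and highest values were 7.31, 9.88 and 12.8 CPM in Grain and 9.42, 10.5 and 12.8 CPM in Hay, with overlap. The mean log2 ratio was -0.11 ± 0.036 (edgeR adjusted p = 0.00439), and the difference changed sign with time. At T8 the libraries held 7.66, 7.31 and 9.40 CPM in Grain and 11.6, 12.3 and 9.93 CPM in Hay (-0.48 ± 0.087, adjusted p = 1.16e-05). At T12 they held 12.5, 12.8 and 12.2 CPM in Grain and 9.42, 10.1 and 10.2 CPM in Hay (0.34 ± 0.087, adjusted p = 0.00093). The groups did not overlap at either time, with Grain the lower group first and the higher group 4 h later. The interaction had an adjusted p of 2.15e-05, and of 0.0906 when T8 and T12 and their 12 libraries were left out. At the remaining times the ratios were 0.02 ± 0.087 at T0, -0.34 ± 0.087 at T4 (adjusted p = 0.00105), -0.03 ± 0.087 at T16 and -0.19 ± 0.087 at T20.

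NDRG1 encodes a cytoplasmic protein linked to stress, differentiation and myelin maintenance. Its lowest, median and highest values were 295, 326 and 356 CPM in Grain and 371, 455 and 568 CPM in Hay, without overlap. Over the 6 times the log2 ratio was -0.51 ± 0.015 (edgeR adjusted p = 4.85e-27), 1.42-fold higher in Hay. The Hay libraries held 469, 465 and 455 CPM at T0, 549, 521 and 515 at T4, and 544, 568 and 543 at T8. At T12 they held 371, 384 and 376 CPM, followed by 443, 439 and 427 CPM (T16) and 446, 454 and 442 CPM (T20). Hay NDRG1 was high at T4 and T8 and at its lowest at T12. In Grain the lowest mean was 304 CPM at T8 (308, 308 and 295) and the highest 350 CPM at T12 (356, 347 and 346), so the media moved in opposite directions between these times. The ratio was -0.86 ± 0.038 at T8 and -0.11 ± 0.038 at T12 (adjusted p = 0.0115), and the T12 call was lost without Grain T12 replicate 2 or 3 (-0.09, adjusted p = 0.0808 and 0.0821). The interaction had an adjusted p of 5.82e-13, and of 0.000675 without T8 and T12. NDRG1 overlaps CCN4 in the annotation, a matricellular gene with 12.1 ± 6.96 CPM in Grain and 8.06 ± 2.89 in Hay. Its reads in the shared stretch cannot be told apart.

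At single time points the number of the 9 genes that passed was 4 at T0 (62.8% of all tested genes passed), 9 at T4 (57.8%) and 7 at T8 (56.8%). It was 6 at T12 (64.3%), 5 at T16 (62.7%) and 6 at T20 (58.9%). HIF1A, EGLN3, VEGFA and NDRG1 passed at each of these times. The dependence of the difference on time passed for 6 of 9, HIF1A, EGLN3, VEGFA, ADM, BNIP3 and NDRG1, and for 32.6% of tested genes. Without T8 and T12 it passed for 5 of 9, and over all genes for 3458 in place of 7322. Any change over time passed for 8 of 9 in Grain (51.5% of tested genes) and for 5 of 9 in Hay (35.2%), namely EPAS1, EGLN3, VEGFA, ADM and NDRG1. Without T8 and T12 these counts were 6 in Grain, where BNIP3 (adjusted p = 0.31) and NDRG1 (0.336) no longer passed, and 4 in Hay, where EGLN3 (0.505) no longer passed. Over all genes they were then 7168 in place of 11579 in Grain and 3618 in place of 7927 in Hay. HIF1A in Hay had an adjusted p of 0.0607, which ranged from 0.021 to 0.94 across these settings and the removal of single libraries.

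The series was designed around circadian rhythm, and a cosine of 24 h period was fitted for each medium. The samples span 20 h, less than a full period, so a cosine cannot be separated from other shapes of the course. In Grain 5 of 9 passed (31.8% of tested genes). VEGFA had an amplitude of 0.56 ± 0.089 on the log2 scale with a peak at 16.3 ± 0.61 h after T0 (SE), ADM one of 0.19 ± 0.036 at 17.1 ± 0.71 h, and EPAS1 one of 0.18 ± 0.045 at 15.1 ± 0.98 h. HIF1A (0.10 ± 0.024) and EGLN1 (0.08 ± 0.020) also passed, with fitted peaks at 5.1 ± 0.89 and 6.38 ± 0.96 h. The 5 genes thus had fitted peaks in 2 parts of the course, the growth factor, the peptide and EPAS1 late, and HIF1A and EGLN1 early. A fitted peak is not the observed one, and its SE holds only for a cosine shape. Observed VEGFA in Grain was highest at T12 (mean 430 CPM) and already lower at T16 (364 CPM), before its fitted peak. EPAS1 in Grain also had its highest mean at T12. Without T8 and T12, EPAS1 (edgeR adjusted p = 0.0694) and EGLN1 (0.0651) no longer passed. With a linear trend added, EGLN1 no longer passed (0.0667), and EGLN3 (7.47e-07) and BNIP3 (0.00635) did.

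In Hay 2 of 9 passed (20.7% of tested genes). EPAS1 had an amplitude of 0.20 ± 0.045 with a peak at 14.7 ± 0.86 h, close to its Grain fit, and NDRG1 one of 0.19 ± 0.034 with a peak at 4.15 ± 0.69 h. VEGFA in Hay had an amplitude of 0.21 ± 0.086 that did not pass (edgeR adjusted p = 0.204). It passed when the 18 Hay libraries were fitted alone (0.000132). The rhythm itself differed between media for 2 of 9 (11.3% of tested genes). NDRG1 had an adjusted p of 0.00263, and of 0.00635 without T8 and T12. HIF1A had 0.0445, and the call was lost on leaving out any of 21 of the 36 libraries (highest adjusted p 0.0893) and without T8 and T12 (0.273). For VEGFA the difference of rhythm did not pass (0.126), but it passed with a linear trend added to each medium's cosine (0.00165). With that trend EGLN3, ADM and BNIP3 passed as well, 6 of 9 in all. Of all tested genes, 4343 passed with the trend, in place of 2550 without it.

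**Figure D4:**
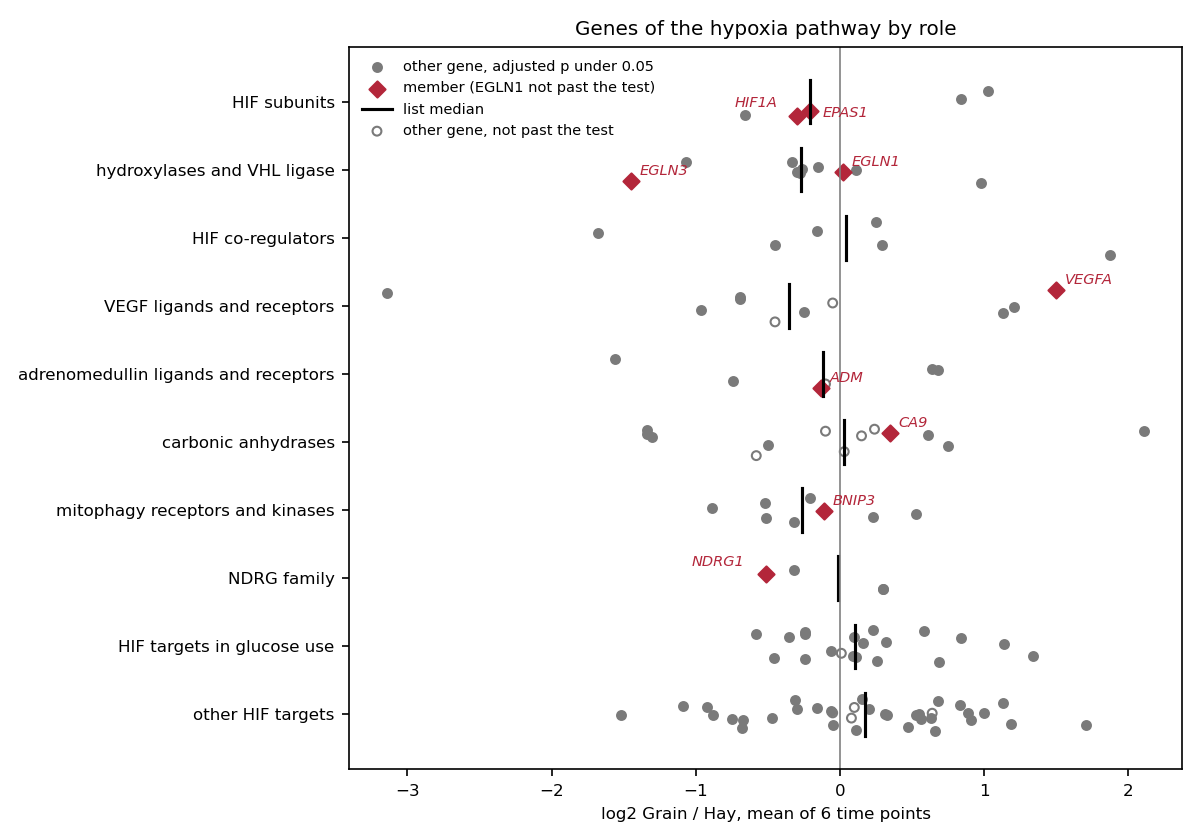
Log2 ratio of Grain over Hay, mean of 6 time points (horizontal axis), for the tested genes of 10 lists of the oxygen-sensing pathway (rows), with the 9 genes named as diamonds, list medians as black bars and genes that did not pass the test as open circles. VEGFA at 1.5 and EGLN3 at -1.45 lie on opposite sides of rows that hold genes of both directions.

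The wider pathway was described with 10 lists ordered by role, in which 108 genes other than the 9 were tested. Of these, 49 were higher in Grain, 47 lower and 12 did not pass, with a median log2 ratio of 0.06, beside -0.07 for all tested genes. The dependence of the difference on time passed for 59 of the 108, beside 32.6% of all tested genes. A mean ratio given for these lists therefore need not hold at each time. Among HIF subunits, ARNT, the beta partner, was higher in Grain (0.84 ± 0.021; 68.2 ± 11.5 against 37.5 ± 2.76 CPM). Its ratio was 0.59 at T8 and 1.06 at T12 (edgeR adjusted p = 6.76e-07 for the interaction). HIF3A, a further alpha subunit with inhibitory forms, was also higher (1.03 ± 0.041; 10.4 ± 0.725 against 5.09 ± 0.526 CPM). ARNT2 was lower in the mean of the times (-0.66 ± 0.044), with ratios of 0.05 at T8 and -1.16 at T12 (edgeR adjusted p = 1.46e-07 for the interaction). Both genes of the listed alpha subunits with the best known activating role, HIF1A and EPAS1, were therefore lower in the medium where ARNT was higher. ARNT2 overlaps another annotated gene.

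Of the 10 hydroxylase and VHL ligase genes, 2 were higher in Grain, 7 lower and 1 did not pass, with a median of -0.27. RBX1, the RING subunit of the ligase, was lower (-1.07 ± 0.021; 17.4 ± 2.33 against 36.3 ± 1.86 CPM) and overlaps another annotated gene. ELOC, its elongin C subunit, was lower (-0.30 ± 0.011), as was HIF1AN, the asparaginyl hydroxylase that blocks HIF coactivator binding (-0.33 ± 0.014). P4HTM, a membrane-bound prolyl hydroxylase, was higher (0.98 ± 0.073; 4.11 ± 0.752 against 2.1 ± 0.456 CPM). EGLN2, the remaining EGLN family member, had a ratio of 0.11 ± 0.027 that passed with TMM (adjusted p = 0.000633) and not with upper quartile scaling (-0.02, 0.598). Of 6 co-regulators, 3 were higher and 3 lower (median 0.04). CITED2, which competes with HIF for the coactivators p300 and CBP and is itself a HIF target, was lower (-1.68 ± 0.019; 59.3 ± 10.4 against 189 ± 19.6 CPM). Of the HSP90 chaperone genes that stabilise HIF1A protein, HSP90AB1 was higher (1.87 ± 0.016; 1270 ± 283 against 339 ± 24.4 CPM) and HSP90AA1 lower (-0.45 ± 0.010). EP300, which encodes p300, was higher (0.29 ± 0.019). The HSP90 genes are close relatives whose reads could be split in counting, so their opposite directions are uncertain.

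Of the 10 VEGF ligands and receptors, VEGFA, VEGFB and FLT1 were higher in Grain, 5 were lower and 2 did not pass (median -0.35). VEGFB went from 3.83 ± 0.86 CPM in Hay to 8.33 ± 1.22 in Grain (1.13 ± 0.057), and FLT1, a VEGF receptor often acting as a decoy, from 30.0 ± 6.18 to 68.8 ± 10.3 CPM (1.21 ± 0.023). KDR, the main signalling receptor of VEGFA, was lower in Grain (2.92 ± 0.581 against 4.72 ± 0.778 CPM; -0.69 ± 0.065). The neuropilin co-receptors NRP1 (-0.69 ± 0.017) and NRP2 (-0.96 ± 0.026) were lower too. Among the ligands, VEGFC (-0.25 ± 0.029) was lower, VEGFD was near the floor of counting (0.086 ± 0.0643 CPM in Grain, 0.667 ± 0.121 in Hay), and PGF (-0.05 ± 0.045) did not pass with TMM. PGF was called lower with upper quartile scaling (-0.17), and the lymphatic receptor FLT4 did not pass (-0.45 ± 0.28, adjusted p = 0.134). KDR, NRP2, VEGFC and PGF overlap other annotated genes.

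Endothelial markers were set beside the VEGF receptors. The summed level of the 12 listed markers, which include FLT1 and KDR themselves, was 79.4 to 134 CPM in Grain and 49.3 to 77.2 CPM in Hay, and of 11 tested, 4 were higher in Grain and 6 lower. FLT1 made up most of the sum. EMCN (11.4 ± 3.34 against 2.76 ± 1.01 CPM), PECAM1 (2.32 ± 0.428 against 1.05 ± 0.268 CPM) and ESAM (0.628 ± 0.196 against 0.393 ± 0.11 CPM) were also higher in Grain. ERG (13.7 ± 2.9 against 16.8 ± 2.56 CPM), KDR, TEK, CLDN5, CDH5 and TIE1 were lower, and VWF did not pass (2.49 ± 0.548 against 2.36 ± 0.4 CPM). CDH5 (0.0889 ± 0.0771 CPM in Grain, 0.24 ± 0.111 in Hay) and TIE1 (0.0664 ± 0.0791 and 0.204 ± 0.117 CPM) were near 0. Immune markers summed to 3.64 to 5.04 CPM in Grain and 5.84 to 8.11 in Hay, with MS4A1 at 0 in 35 of the 36 libraries. Smooth muscle markers summed to 400 to 954 CPM and 217 to 985 CPM. Of 11 fibroblast markers 6 were higher in Grain and 5 lower, of 7 smooth muscle markers 5 and 1, and of 9 immune markers 2 and 5. The part of cell makeup in the differences of the 9 genes was not tested.

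For adrenomedullin, the receptor gene CALCRL was lower in Grain (-1.56 ± 0.021; 16.4 ± 1.47 against 49.5 ± 11.4 CPM). Its partner proteins that set ligand preference went different ways, with RAMP2 higher (0.68 ± 0.090), RAMP3 lower (-0.74 ± 0.11) and RAMP1 not past the test (-0.10 ± 0.15, adjusted p = 0.524), all with means under 3 CPM. ADM2, a related peptide gene that overlaps SBF1, was higher (0.64 ± 0.080). Of 13 carbonic anhydrases tested, 4 were higher in Grain (CA2, CA4, CA9, CA14), 4 lower (CA1, CA5A, CA8, CA13) and 5 did not pass (CA3, CA6, CA7, CA11, CA12). CA13, a cytosolic form, was lower (-1.34 ± 0.029; 10.3 ± 1.48 against 26.0 ± 1.41 CPM), and CA2, the widespread fast cytosolic form, was higher in the mean of the times (0.61 ± 0.037). The CA2 ratio depended on time (edgeR adjusted p = 5.2e-13 for the interaction). It was 1.34 at T8, -0.32 at T12 and 0.10 at T16. CA4, anchored at the membrane, was higher from a low level (2.02 ± 0.604 against 0.462 ± 0.136 CPM; 2.11 ± 0.10) and overlaps another annotated gene. CA8, which lacks catalytic activity, was lower (-0.50 ± 0.040). CA12, the other surface form linked to hypoxia, had 0.0836 ± 0.0562 CPM in Grain against 0.122 ± 0.0535 in Hay.

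Of the 8 mitophagy genes, 6 were lower in Grain and 2 higher (median -0.26). BNIP3L, the close relative of BNIP3 also called NIX, was lower (-0.32 ± 0.014; 112 ± 4.72 against 140 ± 3.24 CPM), and all Grain libraries were below all Hay libraries. FUNDC1, another hypoxia-related mitophagy receptor, was lower (-0.52 ± 0.019), and BCL2L13 was higher (0.53 ± 0.015). In the NDRG family, NDRG2 (0.30 ± 0.020) and NDRG3 (0.30 ± 0.012) were higher in Grain and NDRG4 (-0.32 ± 0.018) was lower, as NDRG1 was. Of 20 HIF targets in glucose use, 12 were higher in Grain, 7 lower and 1 did not pass (median 0.11). With upper quartile scaling the counts were 8, 7 and 5. HK2, the inducible hexokinase, was higher (1.34 ± 0.017; 113 ± 27.9 against 43.8 ± 4.62 CPM). The glucose transporter genes SLC2A3 (1.14 ± 0.022) and SLC2A1 (0.84 ± 0.018) were higher, as was GAPDH (0.69 ± 0.014), a glycolytic enzyme gene with many near-identical copies whose counts are uncertain. HK2 and SLC2A1 overlap other annotated genes. The genes named from this list have its smallest p-values and all belong to the 12 higher ones, so the 7 lower ones are not represented by name.

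Of 36 other HIF targets, 19 were higher in Grain, 13 lower and 4 did not pass (median 0.17). WSB1, a ubiquitin ligase adaptor, was lower (-1.09 ± 0.014; 380 ± 57.7 against 806 ± 97.5 CPM). P4HA2, a collagen prolyl hydroxylase subunit (1.13 ± 0.015; 296 ± 65.8 against 136 ± 32.7 CPM), and LOXL2, a collagen crosslinking enzyme (0.89 ± 0.015), were higher and overlap other annotated genes. Targets of HIF were thus found in both directions in this list and in that of glucose use.

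The courses of the 9 genes were set beside those of other genes by Pearson correlation of the 12 group means of log2 CPM after removal of each medium's mean. The 12 points share libraries and scaling, and each named gene is the best of many candidates, so these values are descriptions. VEGFA was most like HSD17B11 and DNASE1L1 (0.993 each), EPAS1 like CDV3 (0.991) and SND1 (0.99), and HIF1A like C9H8orf34 (0.98) and SLC41A2 (0.946). BNIP3 was most like TIMP2 (0.964) and NUCKS1 (0.956), and NDRG1 like BAIAP2 (0.958) and CXCL8 (0.956). EGLN3 was most like KIF26B (0.92) and EPRS1 (0.905), ADM like CARM1 (0.914) and MKNK2 (0.881), EGLN1 like ANKRD13C (0.862) and PPP2CB (0.859), and CA9 like SFI1 (0.84) and ADCK5 (0.768). The CA9 course itself passed in neither medium (edgeR adjusted p = 0.858 in Grain, 0.503 in Hay), so its values rest on changes that passed no test. Courses of HIF1A, EGLN1 and BNIP3 did not pass in Hay. Among the 9 themselves, the highest values were 0.889 for HIF1A with EGLN3 and 0.834 for EPAS1 with VEGFA, and the lowest was -0.801 for HIF1A with ADM. HIF1A and EPAS1 had -0.292.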

How the data were processed

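RNA was extracted with TRNzol and sequenced paired-end after TruSeq RNA v2 library preparation, a kit that keeps no strand, per the labels' protocols. The submitters' processing notes name StringTie 2.1.5, HISAT2 2.2.1 and SAMtools 1.20, without their roles, and a genome build is not given in the sources used here. Per library, the authors deposited whole-number read counts for each gene, without normalisation.

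Groups came from the sample labels. Counts were filtered (filterByExpr, minimum count 10, minimum total 15, 12 groups), TMM-scaled and tested with edgeR 4.0.16 quasi-likelihood (limma 3.58.1, R 4.3.3) on 12 group means, or on a 24 h cosine and sine for each medium. P-values are two-sided and Benjamini-Hochberg adjusted over all 22488 genes, with a threshold of 0.05. CPM include the TMM factors. Within-library ratios added 0.5 to each count. The procedure was tested on simulated data in which only a small share of genes changed. Scaling under changes as widespread as those found here was not tested that way. Gene overlaps came from a RefSeq table (ARS-UI_Ramb_v3.0), in which all 9 genes matched by symbol.

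The 9 genes, the lists and the tests were chosen with earlier results of these data known. Named beside the 9 are up to 4 genes a list with the smallest p for the mean difference, the VEGF and adrenomedullin receptors and family relatives, and the 2 genes of most similar course (course past the test in both media, minimum 5 CPM in either). Some genes that this rule names are not reported here. Marker and overlap genes are named where a value is set beside a result, the markers after their values were seen. Alternatives were DESeq2 1.42.0, 2 other scalings, no filter, the replicate number as a block, a linear trend, fits of a time point or medium alone, ratio pseudocounts of 0 and 5, and leaving out each library. Leaving out T8 and T12, and permuting the ratios' labels within time points, were added after seeing the data.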

Additional observations from a re-analysis of the deposited data

Results flagged for a closer look

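The difference between media depended on time for 6 of the 9 genes and for 32.6% of all tested genes. The test was an F test of the interaction in edgeR with adjustment over all tested genes. The adjusted p was 3.82e-16 for VEGFA, whose log2 ratio ran from 0.88 at T8 to 1.98 at T12. It was 5.82e-13 for NDRG1, with ratios from -0.86 at T8 to -0.11 at T12. HIF1A had 2.55e-07 (-0.13 at T8, -0.44 at T12) and EGLN3 had 5.94e-07 (-1.31 at T8, -1.61 at T16). BNIP3 had 2.15e-05, with a change of sign from -0.48 at T8 to 0.34 at T12, and ADM had 7.09e-05 (-0.40 at T4, -0.02 at T16). BNIP3 did not pass without T8 and T12 (edgeR adjusted p = 0.0906).

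The 24 h cosine differed between the media for NDRG1 (adjusted p = 0.00263), with an amplitude of 0.19 ± 0.034 in Hay and 0.06 ± 0.035 in Grain. It also differed for HIF1A (adjusted p = 0.0445), with 0.10 ± 0.024 in Grain and 0.02 ± 0.024 in Hay. The HIF1A value did not hold when single libraries were left out.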

How the results depend on the processing

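Across 4977 values of the 9 genes under the alternatives, 4886 kept their side of the threshold, 52 lost the call, 36 gained it and 3 reversed. Among the 4886, 15 values changed sign while past the threshold in neither setting. The reversals were EGLN1 with upper quartile scaling: -0.10 for the mean, -0.10 at T12 and -0.12 at T16. The 24 h difference between media passed for 1 of the 9 in place of 2 with DESeq2, with DESeq2 size factors, with no filter, with the replicate block and with T8 and T12 left out, for 6 with a linear trend, and for 1 to 2 without single libraries. With a trend, 1 of 9 in place of 2 passed in Hay (EPAS1, adjusted p = 0.0569), and 4343 genes in place of 2550 differed in rhythm. Without T8 and T12, 3 of 9 in place of 5 passed the 24 h test in Grain. Over all genes, the calls without those times were 3458 in place of 7322 for the interaction, 7168 in place of 11579 and 3618 in place of 7927 for the courses in Grain and Hay, and 3731 in place of 7157, 2713 in place of 4647 and 1063 in place of 2550 for the 24 h component in Grain, in Hay and its difference. Fewer libraries and times were then tested.

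The replicate numbers did not pair the libraries: 0 of 18 same-numbered pairs across media had deviations correlated above 0.1 (-0.0393 to 0.0277), and 6 of 18 Grain libraries matched their own number best. The replicate block removed the HIF1A rhythm difference (adjusted p = 0.0569) and changed no other call of the 9. BNIP3 at T20 (-0.19, not past the test) passed with DESeq2 and both other scalings (-0.22 to -0.31), with T20 fitted alone (-0.20) and without Grain T8 replicate 3 (-0.19). The EPAS1 to HIF1A difference of 0.09 passed with labels permuted within time points (adjusted 0.03). The replicate unit is not stated, CA9 rests on 76 to 161 reads a library, and 3 of the 9 overlap another gene.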
